A study of Mus musculus with 6 samples.

Results

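The nuclear genes of the mitochondrial respiratory chain and of ATP synthase were described in mouse hearts at day 4. They were taken from the deposited table by symbol, as the protein-coding rows named Nduf (complex I), Sdha to Sdhd and their assembly factors (complex II), Uqcr and Cyc1 (complex III), Cox4 to Cox8 (complex IV) and Atp5 (complex V). The rule, which used no measured value, found 99 of 54532 rows: 46 of complex I, 8 of complex II, 9 of complex III, 18 of complex IV and 18 of complex V. Of these, 96 reached the limit for testing, 1 FPKM or more in at least 3 libraries (FPKM, reads per kilobase of gene on a library scale set by the authors). The 3 others were Cox7b2, a testis-linked form of a complex IV subunit, at 0 to 0.22 FPKM, Cox8c, listed at 0 in all 6 libraries, and a second row named Atp5o, also listed at 0.

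RNA came from the hearts of ICR mice, a wild-type outbred stock. The STZ group (n = 3) was the offspring of mothers given STZ, read here as streptozotocin, a toxin of the insulin-producing beta cell that is used to raise blood glucose, while they were pregnant. The control group (n = 3) was the offspring of mothers given citric acid. No genotype or treatment of the offspring themselves separated the groups, and the series is about the hearts of offspring in a mouse model of gestational diabetes. Nothing in the labels says whether the 3 hearts of a group came from different litters, so p-values measure the spread between these samples.

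The respiratory chain passes electrons from NADH through complex I, and from succinate through complex II, to coenzyme Q, then through complex III and cytochrome c to complex IV, which reduces oxygen. Complexes I, III and IV pump protons across the inner mitochondrial membrane, and ATP synthase (complex V) uses that gradient to make ATP. In rodents the heart turns after birth from glucose and lactate towards fatty acid oxidation, and muscle forms of some complex IV subunits replace widely expressed forms as the heart matures. Most subunits are encoded in the nucleus and 13 in the mitochondrial genome, so both sets of genes are needed to build complexes I, III, IV and V, while complex II is wholly nuclear.

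The promoters of these genes are a known meeting point of the factors NRF1, GABPA (also called NRF2), the oestrogen-related receptors and YY1. RefSeq promoters on GRCm38.p6 (250 bases before to 50 after a start) were found for 80 of the 99 genes by symbol or synonym, and 4 motifs were searched on both strands. The NRF1 letters, GCGC and TGCGC with any 1 base between them, stood in 21 of 80 genes (26.3%), against 5.19% of 27025 genes with a promoter in the same table. The GABPA letters CCGGAAG were also in 21 genes (26.3%), against 9.93% of all genes. The YY1 letters AAGATGGCG were in 8 genes (10%), against 1.64% of all genes, and the receptor letters TCAAGGTCA were in 2 genes (2.5%), against 0.466%. At least 1 of the 4 motifs was found in 42 of 80 genes, against 15.5% of all genes. No motif contains another, and the NRF1 letters can match both strands at 1 place. Complex II had the densest matches, with NRF1 letters in 4 of 7 genes and GABPA letters in 5 of 7, whereas complex IV had them in 1 and 3 of 13. A match is a description of the sequence only.

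Promoters are shown for 2 catalytic subunits of complex II and for a subunit of complex IV with a muscle counterpart. A further promoter is that of the subunit c gene of ATP synthase with the highest FPKM. These 4 promoters are shown because they carry NRF1, GABPA or receptor letters and belong to genes described below. Each is the 250 bases before the RefSeq start on the gene's own strand, 5′ to 3′, with motif letters (either strand) in capitals. The Sdha window (chr13:74350241-74350490, minus strand) holds 3 NRF1 matches and the Sdhd window (chr9:50603850-50604099, minus strand) holds an NRF1 and a GABPA match. The Cox6a1 window (chr5:115348959-115349208, minus strand) holds NRF1 letters at 2 places and a GABPA match near the start, and the Atp5g3 window (chr2:73911327-73911576, minus strand) holds the receptor letters.
Sdha: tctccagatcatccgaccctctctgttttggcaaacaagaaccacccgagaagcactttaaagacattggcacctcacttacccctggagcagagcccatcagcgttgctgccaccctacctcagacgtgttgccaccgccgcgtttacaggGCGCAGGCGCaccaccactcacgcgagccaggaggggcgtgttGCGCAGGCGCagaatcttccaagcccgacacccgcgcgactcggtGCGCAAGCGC
Sdhd: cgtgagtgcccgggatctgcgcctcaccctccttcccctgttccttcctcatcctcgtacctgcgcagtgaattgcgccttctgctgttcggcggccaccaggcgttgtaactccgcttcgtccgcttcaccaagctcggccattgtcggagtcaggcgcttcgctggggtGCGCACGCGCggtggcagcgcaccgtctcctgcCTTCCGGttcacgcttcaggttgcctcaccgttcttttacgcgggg
Cox6a1: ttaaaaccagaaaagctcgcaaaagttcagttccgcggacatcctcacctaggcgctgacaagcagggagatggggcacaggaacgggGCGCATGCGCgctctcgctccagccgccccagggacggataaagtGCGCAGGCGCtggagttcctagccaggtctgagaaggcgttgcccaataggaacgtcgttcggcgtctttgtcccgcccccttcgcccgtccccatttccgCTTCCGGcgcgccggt
Atp5g3: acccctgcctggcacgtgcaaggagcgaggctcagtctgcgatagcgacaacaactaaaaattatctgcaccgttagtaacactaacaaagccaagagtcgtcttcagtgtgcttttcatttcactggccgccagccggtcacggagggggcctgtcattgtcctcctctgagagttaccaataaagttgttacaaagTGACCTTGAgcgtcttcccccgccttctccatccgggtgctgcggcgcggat

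The libraries were of like depth, 16707268 to 18082599 recovered reads, and a tested gene of the chain had 61 to 88395 reads in a library with a median of 2972. One library stood apart. Control 2 had 6.84% of its reads on the mitochondrial genome, against 12.01 to 14.00% in the other 5, and its authors' scale was 1.21 times its reads, against 0.985 to 1.03 times. All 12 ventricular and general cardiomyocyte markers were at their lowest of 6 in control 2 (summed 8954 FPKM, against 17367 to 20696 in the other 5). All 9 atrial markers were at their highest there (summed 6322 FPKM, against 50.8 to 132), as were 9 of 10 fibroblast markers (1796 FPKM, against 836 to 1063), 7 of 8 macrophage markers (108 FPKM, against 43.9 to 55.6) and all 8 erythroid markers (14548 FPKM, against 2229 to 4927). Of 4 brown fat markers, Ucp1, the uncoupling protein that defines brown fat, was at 213 FPKM in control 2 and listed at 0 in the other 5, and Elovl3 was at 0.344 FPKM and listed at 0 in the other 5. Cidea was at 64.5 FPKM, against 18.4 to 23.4, while Prdm16 was the lowest of 6 there, at 1.94 FPKM against 3.50 to 4.25, and the 4 summed to 280 FPKM, against 22.3 to 27.3. Of 8 endothelial markers, 4 were at their lowest in control 2 and 0 at their highest (summed 204 FPKM, against 276 to 336). The 7 smooth muscle and pericyte markers were split, with 3 at their highest in control 2 and 3 at their lowest (summed 457 FPKM, against 385 to 703). Of 7 skeletal muscle markers, 6 were at their highest in control 2 (summed 11.8 FPKM, against 1.21 to 2.18) and Ckm, which heart shares, was at its lowest, 184 FPKM against 357 to 442. The part of these cells in any value of control 2 was not tested, so fold changes are given below with and without that library.

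No gene of the chain or of ATP synthase passed the test between STZ and control hearts. With limma on log2(FPKM + 1) and Benjamini-Hochberg adjustment over 12431 genes at a threshold of 0.05, 0 of 96 members were higher, against 0.0161% of all genes, and 0 were lower, against 0.00804%. The smallest adjusted p of a member was 0.922, and without control 2 it was 0.9999. At an unadjusted p under 0.05, 1 member was higher (Ndufs5; background 1.17%) and 2 were lower (Ndufb2 and Atp5e; background 1.42%). With voom on the recovered reads 0 were higher (background 0.909%) and 2 lower (background 1.1%), again Ndufb2 and Atp5e. The groups did not overlap for 1 member above (Ndufs5, background 4.92%) and 1 below (Sdhaf1, background 3.62%), together 2.08% of members against 8.54% of all genes. In bulk tissue, fewer cells of a type and less RNA per cell cannot be told apart. Differences were small, as they were over all genes. Of the members, 94 of 96 log2 fold changes were within 0.5 of 0 (95 without control 2). Of all genes tested, 11852 of 12431 were (12100 without control 2), so the count is near the background. The 95% interval had a median half-width of 0.46 and stayed within plus or minus 1 for 83 members.

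The summed level of all 99 genes was 17767, 15693 and 15321 FPKM in STZ hearts (16260 ± 1318, SD, n = 3), against 17910, 16466 and 15462 FPKM in control hearts (16613 ± 1230, SD, n = 3). STZ 1 and control 1 were the highest of their groups, and the groups overlapped, with STZ 3 the lowest of the 6 and control 1 the highest. Control 2 lay between the other controls, so that the control range is the same without it. The median log2 fold change of the 96 genes was -0.032, with 37 above 0 and 59 below, beside a median of 0.031 over all genes, of which 57.7% were above 0. Without control 2 the medians were -0.051 (36 of 96 above 0) and -0.0016 over all genes (49.4% above 0). The members' median was above 0 without STZ 3 (0.018) and without control 1 (0.019).

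**Figure D1:**
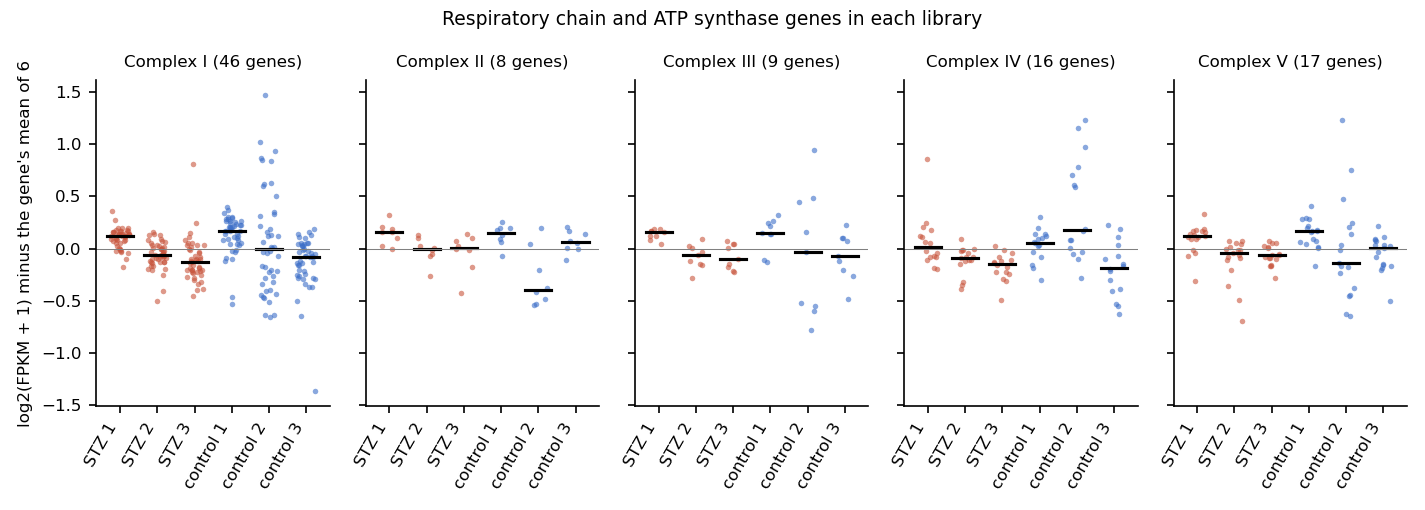
Each point is 1 tested gene in 1 library, as the difference of its log2(FPKM + 1) from its own mean in 6 libraries, with 1 panel per complex, STZ libraries in red to the left of control libraries in blue, and bars at the medians. Points of control 2 spread much farther than those of the other libraries in all 5 panels, with a median of -0.40 in complex II and 0.18 in complex IV.

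Control 2 was the highest or the lowest of the 6 libraries at 68 of the 96 genes, the highest at 31 and the lowest at 37. That is 70.8% of the members, beside 69.1% of all genes tested, so the count is near the background. Its complex IV genes made 30.8% of the summed level of the chain, against 22.6 to 24.1% in the other 5 libraries. Its complex V genes made 24.5%, against 29.95 to 31.40%, and its complex II genes 4.14%, against 5.84 to 6.16%. Complexes I and III kept like shares in all 6, 24.5 to 26.3% and 14.3 to 15.5%.

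Within control 2 the deviations ran with the length of the gene as the table gives it. Among the 24 shortest members (360 to 963 bases) control 2 was above both other controls at 16, with a median of 0.53 above their mean on the log2(FPKM + 1) scale. Among the 24 longest (2708 to 8086 bases) it was below both at 15, with a median of -0.39. All tested genes in bins of about the same lengths had medians of 0.20 and -0.10. Across the 96 genes, which share a library and are not independent, log2 length and the difference of control 2 from the mean of the other 2 controls had a Pearson correlation of -0.57 and a Spearman correlation of -0.59; over all 12431 genes these were -0.25 and -0.28. With each STZ library set against the other 2 of its group, Pearson's value was between -0.031 and 0.020 for the members. Over all genes, Pearson's values for STZ 1, STZ 2 and STZ 3 were -0.155, 0.041 and 0.113. Spearman's were -0.288, 0.064 and 0.242, so over all genes a length trend was not confined to control 2. For controls 1 and 3, each set against a mean that includes control 2, Pearson's value for the members was 0.52 and 0.53. Control 1 minus control 3 gave -0.26 for the members. The fold changes moved with length too. The 24 shortest members had a median log2 fold change of -0.22 with 1 of 24 above 0, and the 24 longest a median of 0.071 with 15 of 24 above 0. Without control 2 these were -0.013 with 12 of 24 above 0, and -0.049 with 7 of 24. Whether RNA quality, fragment size or cell make-up set the pattern in control 2 was not tested.

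**Figure D2:**
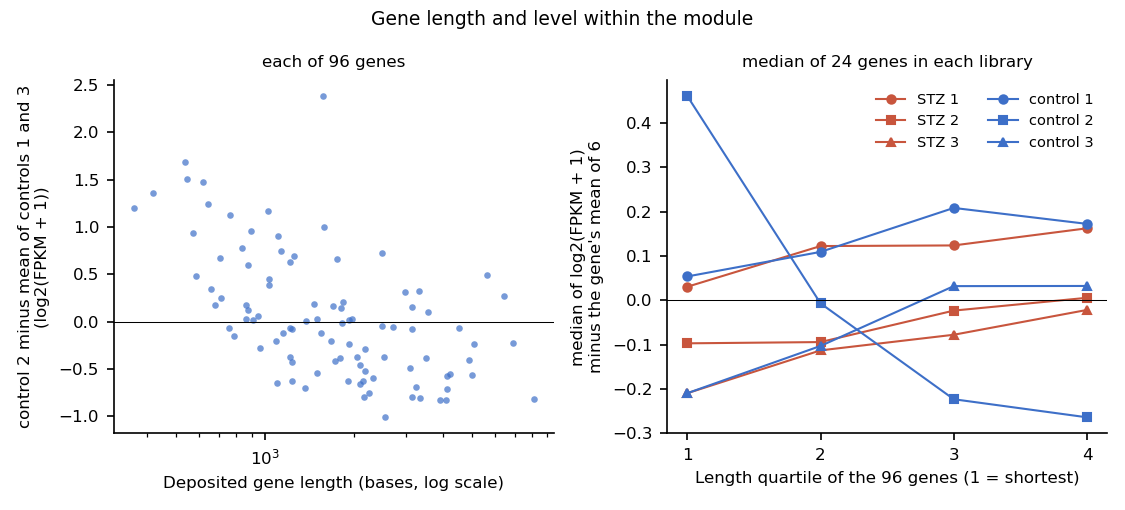
Left, the log2(FPKM + 1) of control 2 minus the mean of controls 1 and 3 (y) against deposited gene length in bases on a log axis (x), for each of 96 genes. Right, the median of 24 genes per length quartile (log2(FPKM + 1) minus the gene's mean of 6) in each library, STZ in red and control in blue: control 2 runs from 0.46 in the shortest quartile to -0.26 in the longest, while STZ libraries stay between -0.21 and 0.16.

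**Figure D3:**
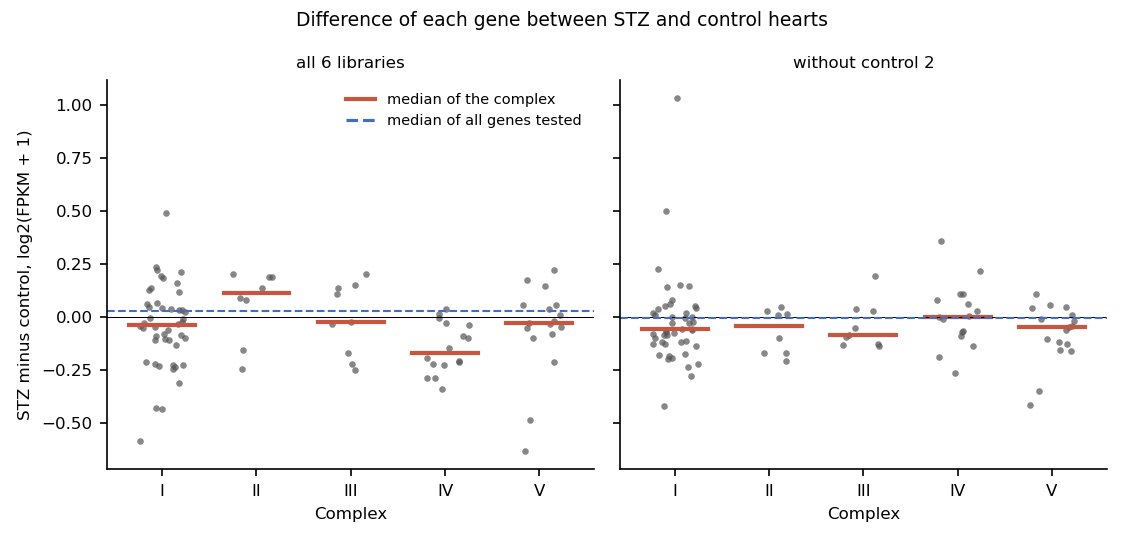
Each point is the log2 fold change (STZ minus control, log2(FPKM + 1)) of 1 tested gene, by complex on the x axis, with all 6 libraries on the left and without control 2 on the right; red bars are medians of the complex and the dashed line is the median of all genes. The complex IV median is -0.17 with all libraries and 0.0023 without control 2, and the complex II median is 0.11 and -0.042.

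Complex I, the NADH dehydrogenase, is built from catalytic core subunits, an outer set of accessory subunits and assembly factors that do not stay in the enzyme. Its 46 genes had a median log2 fold change of -0.037 with 18 above 0 (without control 2, -0.057 with 16). The 7 core subunits had a median of 0.035 with 5 above 0, and without control 2 a median of -0.083 with 1 above 0. In all 7 control 2 was below both other controls. The 29 accessory subunits had a median of -0.088 with 7 above 0, and without control 2 a median of -0.054 with 11 above 0. The 8 Ndufaf genes, assembly factors, had a median of 0.051 with 6 above 0, and 0.018 with 4 without control 2.

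Ndufa4 and Ndufb11 were among the 3 most abundant complex I genes. Ndufa4, named for complex I and since assigned to complex IV, had 318, 270 and 244 FPKM in STZ hearts, against 298, 281 and 263 FPKM in control hearts. Ndufb11, an X-linked accessory subunit, had 251, 238 and 198 FPKM in STZ hearts, against 246, 231 and 211 FPKM in control hearts. For both the groups overlapped, with log2 fold changes of -0.025 and -0.0055 (-0.023 and 0.00069 without control 2).

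Other complex I genes with the lowest p in a direction did not pass the test. Ndufv1, the core subunit that binds NADH, had 195, 190 and 168 FPKM in STZ hearts, against 196, 136 and 158 FPKM in control hearts (log2 fold change 0.19, SE 0.18; 0.062 without control 2). Ndufaf1, an assembly factor, had 21.76, 20.97 and 21.37 FPKM in STZ hearts, against 21.45, 13.92 and 20.005 FPKM in control hearts. Only control 2 lay clearly apart there (log2 fold change 0.22, SE 0.17; 0.043 without it). Ndufs6, a zinc-binding accessory subunit, had 66.4, 71.2 and 57.1 FPKM in STZ hearts, against 78.2, 136 and 62.4 FPKM in control hearts (log2 fold change -0.43, SE 0.28; -0.11 without control 2). Ndufb2, a small accessory subunit, had 2.56, 1.39 and 1.47 FPKM in STZ hearts, against 3.03, 4.19 and 2.37 FPKM in control hearts. STZ 1 was within the control range and the other STZ hearts were below it (log2 fold change -0.58, SE 0.22, unadjusted p = 0.033, adjusted p = 0.922 with limma). Without control 2 the difference was -0.42. Ndufb2 had the lowest mean of the complex, 2.50 FPKM, and its fold on this scale is understated by the pseudocount.

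Ndufs5, an accessory subunit of the membrane arm, was the 1 member with every STZ heart above every control heart. It had 122, 104 and 113 FPKM in STZ hearts, against 65.3, 81.1 and 96.9 FPKM in control hearts (log2 fold change 0.49, SE 0.17, unadjusted p = 0.026, adjusted p = 0.922 with limma; 0.50 without control 2). A processed pseudogene of it, BC002163 on chromosome 16 (chr16:42955631-42955949, plus strand, GRCm38), matched 319 bases of its coding sequence at 99.4% identity, and is a separate row of the table. BC002163 had 4.23, 2.24 and 2.03 FPKM in STZ hearts, against 130, 145 and 3.94 FPKM in control hearts. Controls 1 and 2 were high and control 3 was as low as the STZ hearts. Of the reads on both rows, 1.27, 0.791 and 0.663% lay on the copy in STZ hearts, against 42.4, 39.9 and 1.48% in control hearts. With reads of both rows added, Ndufs5 had 124, 105 and 113 FPKM in STZ hearts, against 113, 135 and 98.4 FPKM in control hearts. The groups then overlapped and the log2 fold change was -0.0096 (SE 0.16; 0.11 without control 2). Adding the rows was an alternative chosen after the data were seen.

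The coding stretch of Ndufs5 and the copy is shown because the sequences part there. In GENCODE M21, with positions counted from 1 at the first base of the Ndufs5 start codon, the copy differs from the gene by T81C and A105G (gene base, position, copy base), in capitals below over positions 61 to 125.
Ndufs5: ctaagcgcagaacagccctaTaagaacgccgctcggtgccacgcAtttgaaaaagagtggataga
BC002163: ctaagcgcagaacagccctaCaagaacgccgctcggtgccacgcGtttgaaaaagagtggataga

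Ndufa12, an accessory subunit, had the widest range of the 96 tested members, and many of its reads were listed elsewhere. Its row had 20.9, 16.0 and 38.7 FPKM in STZ hearts, against 15.4, 61.6 and 7.79 FPKM in control hearts, a 7.91-fold range over the 6. The copy Gm15920 on chromosome 5 (chr5:130188395-130188796, plus strand, 99.5% identity over 402 bases) held 67.7, 69.6 and 45.8% of the reads of both rows in STZ hearts, against 75.7, 34.5 and 86.1% in control hearts. With both rows added, Ndufa12 had 64.7, 52.7 and 71.3 FPKM in STZ hearts, against 63.3, 94.1 and 56.1 FPKM in control hearts, a 1.78-fold range. Its log2 fold change was 0.24 (SE 0.70) for the row and -0.15 for the sum; without control 2 these were 1.03 and 0.066.
The 2 differences, A135G and T414C counted from the Ndufa12 start codon, lie far apart, and the first is shown over positions 115 to 155.
Ndufa12: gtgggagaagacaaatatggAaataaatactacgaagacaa
Gm15920: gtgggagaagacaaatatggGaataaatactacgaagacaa

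In all, 36 pseudogene copies with at least 95% identity over at least 80% of the copy were found for 19 members, and 18 of them, for 13 members, were tested. Adding their reads moved 3 members by more than 0.1 on the log2 scale, Ndufs5, Ndufa12 and Atp5g1, and left 0 of 96 members called. Atp5g1 encodes subunit c of ATP synthase and Gm10039 on chromosome 11 (chr11:100361716-100362126, minus strand) matches its 411 coding bases at 99.8%. Gm10039 held 19.8, 37.5 and 36.4% of the reads of both rows in STZ hearts, against 19.8, 17.5 and 19.2% in control hearts. STZ 2 and STZ 3 were high, and STZ 1 was at the control level. The log2 fold change of Atp5g1 was -0.21 (SE 0.24) for its row and 0.036 for the sum; without control 2 these were -0.34 and -0.11. The single difference, G385A counted from the Atp5g1 start codon, is shown over positions 365 to 405.
Atp5g1: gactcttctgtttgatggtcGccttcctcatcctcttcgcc
Gm10039: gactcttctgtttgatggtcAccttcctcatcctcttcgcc
How reads that match both a gene and its copy were counted is not given in the sources used here, and the cause of these splits was not tested.

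**Figure D4:**
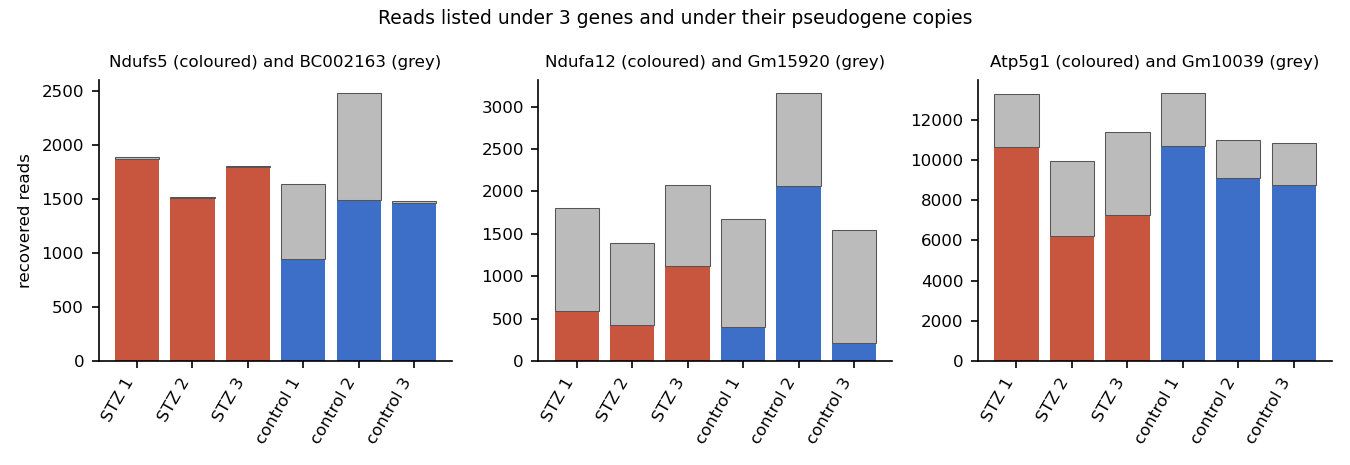
Recovered reads in each library, STZ libraries left of control libraries, listed under 3 genes (coloured, red STZ and blue control) and under their pseudogene copies (grey, stacked on top). The grey part of the Ndufs5 panel is 697 and 988 reads in controls 1 and 2 and 12 to 24 reads in the other 4 libraries.

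Complex II, succinate dehydrogenase, links the tricarboxylic acid cycle to the chain. Its 8 genes had a median log2 fold change of 0.11 with 6 above 0, and without control 2 a median of -0.042 with 4 above 0. Sdha, the flavoprotein subunit, had 244.8, 249.1 and 239.5 FPKM in STZ hearts, against 258, 162 and 227 FPKM in control hearts (log2 fold change 0.21, SE 0.20; 0.014 without control 2). Sdhb, the iron-sulfur subunit, had 221, 183 and 189 FPKM in STZ hearts, against 229, 131 and 215 FPKM in control hearts (0.081, SE 0.24; -0.17 without control 2). Both had their lowest value of 6 in control 2. Sdhc, a membrane anchor, had 127, 113 and 110 FPKM in STZ hearts, against 127, 76.6 and 122 FPKM in control hearts (0.14, SE 0.22; -0.097 without control 2). Sdhd, the other anchor, had 404, 390 and 369 FPKM in STZ hearts, against 417, 279 and 337 FPKM in control hearts (0.19, SE 0.19; 0.047 without control 2). The anchors too were lowest in control 2. Summed over these 4 catalytic subunits, the level was 996, 934 and 908 FPKM in STZ hearts, against 1030, 649 and 901 FPKM in control hearts, and without control 2 their median log2 fold change was -0.041.

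The assembly factors of complex II were far lower. Sdhaf1, which helps insert iron-sulfur clusters into Sdhb, had 2.42, 2.32 and 2.03 FPKM in STZ hearts, against 2.74, 2.53 and 2.57 FPKM in control hearts. Every STZ heart was below every control heart, but by little (log2 fold change -0.15, SE 0.10, unadjusted p = 0.19, adjusted p = 0.922 with limma; -0.17 without control 2). Sdhaf2, needed to attach flavin to Sdha, had 17.6, 15.5 and 17.2 FPKM in STZ hearts, against 14.8, 11.4 and 18.2 FPKM in control hearts (log2 fold change 0.19, SE 0.17; 0.029 without control 2). Over the 13 assembly factors of all complexes the median log2 fold change was 0.042 with 8 above 0, and without control 2 it was -0.00039 with 6 above 0.

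Complex III, the cytochrome bc1 complex, had a median log2 fold change of -0.025 over 9 genes with 4 above 0, which was 0.054 after quantile normalization and -0.085 with 3 above 0 without control 2. Uqcrfs1, the Rieske iron-sulfur protein, had 531, 457 and 469 FPKM in STZ hearts, against 560, 325 and 500 FPKM in control hearts (log2 fold change 0.11, SE 0.24; -0.13 without control 2). Cyc1, cytochrome c1, had 371, 342 and 358 FPKM in STZ hearts, against 425, 225 and 358 FPKM in control hearts (0.14, SE 0.25; -0.13 without control 2). Both catalytic subunits were lowest in control 2, where the short accessory subunit Uqcr11 was highest at 363 FPKM, against 135 to 194 FPKM in the other 5. Uqcrh, the hinge protein that binds cytochrome c1, had 356, 288 and 291 FPKM in STZ hearts, against 345, 305 and 298 FPKM in control hearts, and its log2 fold change was -0.025 (SE 0.16; -0.049 without control 2).

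Complex IV, cytochrome c oxidase, had the median farthest from 0 of the 5 complexes with all libraries, -0.17 with 2 of 16 genes above 0. Without control 2 it was 0.0023 with 8 of 16 above 0. In control 2, 8 of the 16 were above both other controls and 3 below both. Cox4i1, the widely expressed regulatory subunit, had 670, 590 and 553 FPKM in STZ hearts, against 655, 555 and 554 FPKM in control hearts (log2 fold change 0.039, SE 0.18; -0.00048 without control 2). Cox6b1, a subunit of the intermembrane side, had 562, 492 and 505 FPKM in STZ hearts, against 531, 584 and 453 FPKM in control hearts (-0.0034, SE 0.18; 0.080 without control 2). In both the STZ hearts lay within or close to the control range. Cox7b, a small accessory subunit, had 536, 231 and 210 FPKM in STZ hearts, against 264, 284 and 336 FPKM in control hearts, with STZ 1 alone high.

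Several complex IV subunits come in pairs of isoforms, and their ratios within a library do not depend on its scale. For 5 pairs the log2 ratio of the values plus 1 was compared with an exact two-sided permutation test, whose smallest p is 0.1 with 3 against 3 hearts, and 0 of 5 pairs reached it. After adjustment over the 5 pairs every p was 1.

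Cox6a2, the striated muscle form, over Cox6a1, the widely expressed form, gave 1.62, 2.04 and 1.40 in STZ hearts, against 1.76, 1.20 and 1.64 in control hearts. The log2 difference was 0.14 (exact p = 0.7), and -0.023 without control 2 (exact p = 0.8). Cox6a2 itself had 467, 474 and 433 FPKM in STZ hearts, against 552, 549 and 428 FPKM in control hearts, and Cox6a1 had 288, 232 and 309 FPKM in STZ hearts, against 314, 458 and 262 FPKM in control hearts. The muscle form thus exceeded its partner in all 6 libraries.

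Cox7a1, the muscle form, over Cox7a2, the widely expressed form, gave 0.296, 0.365 and 0.385 in STZ hearts, against 0.270, 0.804 and 0.245 in control hearts. Control 2 alone stood high, and the other controls lay below every STZ heart. The log2 difference was -0.12 with all libraries (exact p = 1) and 0.43 without control 2 (exact p = 0.2, the smallest that 3 against 2 allows). Cox7a1 had 99.5, 98.9 and 96.4 FPKM in STZ hearts, against 85.6, 249.2 and 68.3 FPKM in control hearts. Its log2 fold change was -0.21 (SE 0.45) with all libraries and 0.36 without control 2. Cox7a2 had 337, 271 and 250 FPKM in STZ hearts, against 317, 310 and 279 FPKM in control hearts. Brown fat also expresses Cox7a1 and Cox8b, and the Ucp1 level of control 2 is given above; its part in the values of control 2 was not tested.

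Cox8b, the form of heart and skeletal muscle in rodents, over the widely expressed Cox8a gave 0.903, 1.26 and 0.879 in STZ hearts, against 1.10, 0.900 and 1.13 in control hearts. The log2 difference was -0.053 (exact p = 0.9), and -0.16 without control 2 (exact p = 0.6). Cox8b had 232, 263 and 217 FPKM in STZ hearts, against 253, 523 and 203 FPKM in control hearts. Cox8a had 257, 209 and 247 FPKM in STZ hearts, against 229, 581 and 181 FPKM in control hearts. In control 2, Cox8b was at 2.29 and Cox8a at 2.84 times the mean of controls 1 and 3, while their ratio there was within the range of the other libraries.

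Cox4i2, a form known from lung and from hypoxia, over Cox4i1 gave 0.0115, 0.0161 and 0.0135 in STZ hearts, against 0.0145, 0.0160 and 0.0191 in control hearts (log2 difference -0.25, exact p = 0.2; -0.26 without control 2, exact p = 0.4). Cox4i2 had 7.705, 9.516 and 7.456 FPKM in STZ hearts, against 9.497, 8.900 and 10.58 FPKM in control hearts. STZ 2 was within the control range and the other STZ hearts below it (log2 fold change -0.21, SE 0.12, unadjusted p = 0.13, adjusted p = 0.922 with limma; -0.26 without control 2). Ndufa4l2, a hypoxia-induced paralog of Ndufa4, had 19.97, 18.91 and 20.87 FPKM in STZ hearts, against 25.4, 15.2 and 23.3 FPKM in control hearts. Its ratio to Ndufa4 was 0.0628, 0.0701 and 0.0856 in STZ hearts, against 0.0851, 0.0540 and 0.0887 in control hearts. The log2 difference was -0.036 (exact p = 0.9), and -0.25 without control 2 (exact p = 0.4).

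**Figure D5:**
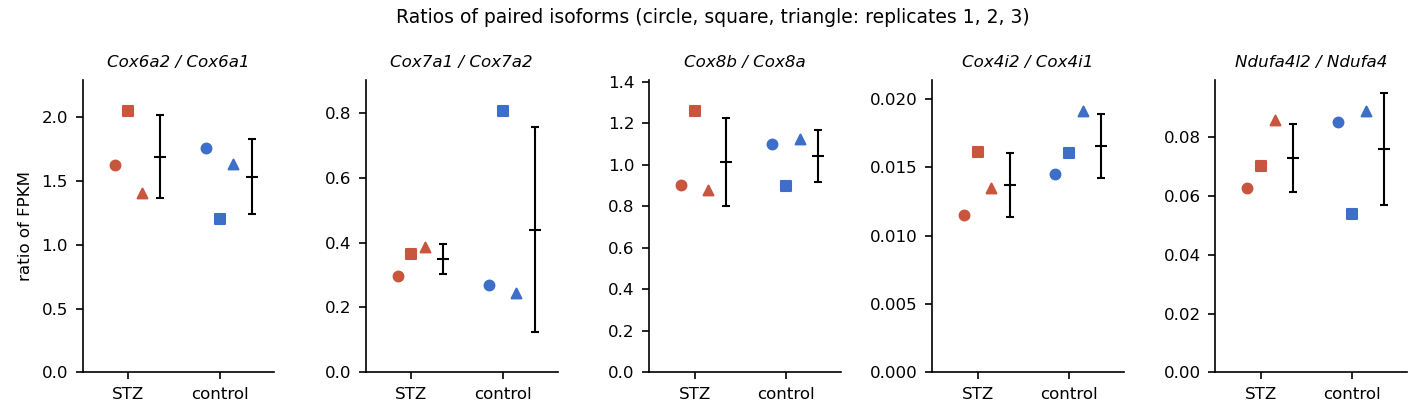
Ratio of FPKM values of 5 isoform pairs in each heart (y axis from 0, a separate scale per panel), STZ in red left of control in blue, with replicates 1, 2 and 3 as circle, square and triangle and the mean ± SD beside them. STZ and control overlap in all 5 panels, and control 2 stands at 0.804 for Cox7a1 over Cox7a2.

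Complex V, ATP synthase, has a catalytic F1 head and a membrane part, Fo, joined by stalks. Its 17 tested genes had a median log2 fold change of -0.028 with 7 above 0, which was 0.026 after quantile normalization and -0.044 with 5 above 0 without control 2. Atp5a1 and Atp5b, the alpha and beta subunits of F1, were the most abundant genes of the whole chain per length, at 1253 and 1058 FPKM on average over the 6 hearts. Atp5a1 had 1399, 1297 and 1293 FPKM in STZ hearts, against 1428, 789 and 1314 FPKM in control hearts (log2 fold change 0.22, SE 0.27; -0.044 without control 2). Atp5b had 1173, 1103 and 1066 FPKM in STZ hearts, against 1171, 762 and 1070 FPKM in control hearts (0.18, SE 0.23; -0.0076 without control 2). Outside control 2, Atp5a1 lay between 1293 and 1428 FPKM and Atp5b between 1066 and 1173 FPKM.

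Atp5e, the small epsilon subunit of F1, had the lowest fold change of all members. It had 70.6, 53.9 and 91.0 FPKM in STZ hearts, against 98.4, 149 and 89.4 FPKM in control hearts. STZ 3 was within the control range and control 2 was the highest of 6 (log2 fold change -0.63, SE 0.26, unadjusted p = 0.047, adjusted p = 0.922 with limma; -0.41 without control 2). The other 4 F1 genes had log2 fold changes above 0 with all libraries, and none did without control 2.

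The 3 genes for subunit c, the ring of Fo, encode the same mature protein behind different import sequences. Atp5g3 had 505, 446 and 431 FPKM in STZ hearts, against 547, 347 and 454 FPKM in control hearts (log2 fold change 0.057, SE 0.21; -0.12 without control 2). Atp5g2 had 136, 127 and 122 FPKM in STZ hearts, against 136, 116 and 131 FPKM in control hearts (0.0090, SE 0.13; -0.058 without control 2). Atp5g1 had 122, 75.3 and 79.6 FPKM in STZ hearts, against 129, 86.5 and 102 FPKM in control hearts, before the reads of its copy were added. Atp5g3 made 66.2, 68.8 and 68.1% of the summed level of the 3 rows in STZ hearts, against 67.3, 63.2 and 66.1% in control hearts. By these rows the order of the 3 genes was the same in the means of both groups. With the reads of its copy added, Atp5g1 had 152, 121 and 125 FPKM in STZ hearts, against 161, 105 and 126 FPKM in control hearts. It was then above Atp5g2 in some libraries and below it in others. These values divide the summed reads by the deposited length of Atp5g1, 4912 bases. The row of Gm10039, of 411 bases, had 360, 541 and 544 FPKM in STZ hearts, against 382, 219 and 290 FPKM in control hearts. The order of these genes thus depends on the copy and on the length used.

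Neighbouring pathways were described by 7 gene lists, and 0 of their 107 tested genes passed the test with limma or with voom. At an unadjusted p under 0.05, 2 were above 0 (Twnk and Ucp3; background 1.17%) and 1 below (mt-Co2; background 1.42%) with limma, near the share over all genes. With voom 1 was above (background 0.909%) and 1 below (background 1.1%), and with limma without control 2, 1 was above (background 2.06%) and 1 below (background 1.87%). The 13 chain proteins of the mitochondrial genome had a median log2 fold change of 0.18 with 9 above 0, and without control 2 a median of -0.18 with 1 above 0. Their summed level was 44646 FPKM in control 2, against 91689 to 110952 FPKM in the other 5. mt-Co2, a core subunit of complex IV, had 174, 186 and 166 FPKM in STZ hearts, against 799, 328 and 255 FPKM in control hearts. Every STZ heart was below every control heart, as for 3.62% of all genes tested (log2 fold change -1.20, SE 0.41, unadjusted p = 0.021, adjusted p = 0.922 with limma). Without control 2 the difference was -1.36. Every STZ heart was then below for 5 of the 13 genes (38.5%), mt-Co2 among them, against 8.55% of all genes. The 13 genes share libraries and are not independent. mt-Co3, another core subunit, had 191, 153 and 88.4 FPKM in STZ hearts, against 144, 259 and 167 FPKM in control hearts. These 2 were among 6 mitochondrial genes listed at 2.75 to 799 FPKM, with mt-Atp6, mt-Atp8, mt-Nd3 and mt-Nd4l, whereas the other 7 were at 2845 to 37930 FPKM; sharing of reads with nuclear copies was not tested.

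Of 17 regulators of mitochondrial genes, 16 had fold changes above 0 with a median of 0.097, and without control 2, 6 were above 0 with a median of -0.025. Twnk, the mitochondrial DNA helicase, had 7.93, 8.34 and 7.94 FPKM in STZ hearts, against 6.947, 5.496 and 7.005 FPKM in control hearts (log2 fold change 0.28, SE 0.11, unadjusted p = 0.043, adjusted p = 0.922). Ppargc1b, a coactivator of the oestrogen-related receptors, had 9.34, 9.38 and 8.44 FPKM in STZ hearts, against 8.42, 3.62 and 7.95 FPKM in control hearts. For both, every STZ heart was above every control heart, as for 4.92% of all genes tested, and for Ppargc1b by very little. Without control 2 the differences were 0.19 and 0.13. The 14 genes of the tricarboxylic acid cycle were all above 0 with a median of 0.17, and without control 2 only 1 was, with a median of -0.078. Idh2, a mitochondrial isocitrate dehydrogenase, had 633, 627 and 543 FPKM in STZ hearts, against 614, 315 and 541 FPKM in control hearts, and Ogdh, part of the oxoglutarate dehydrogenase complex, had 254, 246 and 278 FPKM in STZ hearts, against 280, 115 and 260 FPKM in control hearts.

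The 17 genes of electron carriers and coenzyme Q synthesis had a median log2 fold change of 0.068 with 11 above 0 (-0.047 with 4 without control 2). Coq2 and Pdss2, enzymes of coenzyme Q synthesis, had the lowest p there, with fold changes of 0.22 (SE 0.15) and 0.23 (SE 0.22), and of 0.068 and -0.019 without control 2. Of 21 assembly factors of complex IV outside the symbol rule, 17 were tested, with a median of -0.023 and 7 above 0 (-0.025 with 5 without control 2). Coa6, a copper-delivery factor, had 18.7, 17.0 and 14.0 FPKM in STZ hearts, against 21.6, 22.1 and 17.96 FPKM in control hearts (log2 fold change -0.30, SE 0.14, unadjusted p = 0.077; -0.25 without control 2). Pet100, needed for early steps of assembly, had 1.16, 0.799 and 1.115 FPKM in STZ hearts, against 1.26, 6.62 and 1.31 FPKM in control hearts. Every STZ heart was below every control heart there, as for 3.62% of all genes tested, and the values were low. The 16 assembly factors of complexes I, III and V had a median of 0.072 with 12 above 0 (0.012 with 9 without control 2), with Foxred1, a complex I factor, at 0.25 (SE 0.14; 0.13 without control 2) and Uqcc3, a complex III factor, at -0.39 (SE 0.22; -0.15 without control 2). The 13 genes of ADP and phosphate exchange and of inhibition or uncoupling had a median of 0.069 with 10 above 0 (-0.024 with 5 without control 2). Ucp3, an uncoupling protein of muscle, had 9.22, 10.7 and 15.3 FPKM in STZ hearts, against 5.13, 5.73 and 10.02 FPKM in control hearts (log2 fold change 0.70, SE 0.27, unadjusted p = 0.035, adjusted p = 0.922 with limma; 0.60 without control 2), and STZ 1 lay below control 3. Ucp2, a widely expressed relative, had 29.2, 37.2 and 34.6 FPKM in STZ hearts, against 48.8, 38.4 and 32.3 FPKM in control hearts.

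Leaving out control 2 changed which members were farthest apart. The groups then did not overlap for 9 of 96 members (9.38%), against 17.7% of all genes. Above were Ndufa12, Ndufs5 and Cox7a1 (background 9.16%), and the 6 below included Ndufa4l2, Ndufaf5, Sdhaf1, Uqcrc2 and Atp5s (background 8.55%). With reads of the copies added, the groups overlapped for Ndufa12 and Ndufs5, whose differences without control 2 were then 0.066 and 0.11. At an unadjusted p under 0.05, 3 were higher (background 2.06%) and 2 were lower (background 1.87%), and 0 passed the adjusted threshold, against 0.0161% of all genes in each direction. With 2 control hearts left, the spread was pooled over both groups.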

How the data were processed

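RNA of 6 mouse hearts was sequenced, per the labels' protocols from column-purified total RNA with a SMARTER mRNA-seq kit, and 1 table of FPKM-type values on GRCm38 (mm10, per the submitters' processing notes) was deposited by the authors. The unit was read from the table's abbreviation and values; aligner, counter and strand use: not given in the sources used here. Values times gene length came in whole steps in each library (100% of values above 0, within 0.01 reads), which gave the reads used for depth, copies and voom.

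The main test was limma (version 3.58.1, R 4.3.3) on log2(FPKM + 1) with its trend option and group as the only term. It took the 12431 genes that reached 1 FPKM in 3 or more libraries, with two-sided p-values, Benjamini-Hochberg adjusted over all of them, threshold 0.05. Fold changes keep this scale, so that those of low genes are understated. Isoform ratios had an exact permutation test. The fit was tested on simulated data.

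Copies were found with blastn 2.17.0 among GENCODE M21 pseudogenes (at least 100 aligned bases), in which 92 of 99 members had the position of the table. Named are the 3 most abundant members of each complex, the isoform pairs and subunit c, the catalytic subunits of complex II, the 5 members with the lowest p in each direction, those not tested, and the 2 genes of each list with the lowest p. 1 of the genes so chosen is not reported here. Cox7b, Ndufa12, Uqcr11 and the non-overlapping genes without control 2 were named after their values were seen. The members and lists were chosen with earlier results of these data known. Alternatives covered the pseudocount, filters, scaling, a replicate block, weights, robust variances, gene type, voom, each library left out and, added after the data were seen, reads of copies. No libraries of a group agreed within sampling noise (chi-square per degree of freedom at least 11.6).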

Additional observations from a re-analysis of the deposited data

How the results depend on the processing

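0 members passed the adjusted threshold in any of the 19 alternative settings tried, and 12 of the 32 named members kept their direction in all of them. Over all genes, the count of higher calls was 2 and of lower calls 1. The higher count was 1 with a pseudocount of 0.1, with no filter on low values, with a mean of at least 5 FPKM and with voom, and 0 with protein-coding genes alone and with the replicate block. The lower count was 2 after quantile normalization, 6 with array weights, and 0 with protein-coding genes alone, with voom and with the replicate block. Leaving out 1 library gave 1 to 2 higher and 1 to 3 lower calls. Deviations of same-numbered hearts from their group means had correlations of 0.021, -0.041 and 0.092. These cannot decide whether the hearts were paired, because control 2 shifts the mean of its group. The labels do not state a pairing. The replicate block changed no other call. The median of complex IV ran from -0.21 to 0.0023 when 1 library was left out. The median of complex II was -0.041 with array weights. Ratios crossed 0 without 1 library, with log2 differences of -0.023 to 0.27 for Cox6a2 over Cox6a1, -0.42 to 0.43 for Cox7a1 over Cox7a2, -0.22 to 0.039 for Cox8b over Cox8a and -0.25 to 0.089 for Ndufa4l2 over Ndufa4. The direction of these members changed when 1 library was left out, with ranges of -0.044 to 0.38 for Atp5a1, -0.0076 to 0.30 for Atp5b, -0.058 to 0.056 for Atp5g2, -0.12 to 0.21 for Atp5g3, -0.038 to 0.12 for Cox4i1, -0.10 to 0.080 for Cox6b1, -0.57 to 0.36 for Cox7a1, -0.21 to 0.00080 for Cox7a2, -0.62 to 0.22 for Cox8a, -0.62 to 0.062 for Cox8b, -0.13 to 0.33 for Cyc1, -0.13 to 0.063 for Ndufa4, -0.28 to 0.077 for Ndufa4l2, -0.076 to 0.096 for Ndufb11, -0.17 to 0.23 for Sdhb, -0.097 to 0.27 for Sdhc, -0.13 to 0.27 for Uqcrfs1 and -0.12 to 0.040 for Uqcrh. Array weights, which give control 2 a weight of 0.146, turned the direction of 13 named members, with -0.033 for Atp5a1, -0.0039 for Atp5b, -0.064 for Atp5g2, -0.14 for Atp5g3, -0.039 for Cox4i1, 0.014 for Cox6b1, 0.24 for Cox7a1, 0.047 for Cox8a, 0.010 for Cox8b, -0.14 for Cyc1, -0.18 for Sdhb, -0.088 for Sdhc, -0.14 for Uqcrfs1. With reads of copies added to the member the values that turned were 0.036 for Atp5g1, -0.0096 for Ndufs5. With median-of-ratios scaling the values that turned were -0.025 for Atp5g2. After quantile normalization the values that turned were 0.014 for Cox6b1, 0.026 for Ndufa4, 0.083 for Ndufb11, 0.021 for Uqcrh. With totals set without haemoglobin and mitochondrial genes the values that turned were -0.048 for Atp5g2, -0.00026 for Atp5g3, -0.019 for Cox4i1. With voom on the recovered reads the values that turned were -0.065 for Atp5g2, -0.017 for Atp5g3, -0.035 for Cox4i1. The causes of these changes were not tested. The lowest reads of a tested member in a library were 61 and the median was 2972; for members near the low end the counting error is larger.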

Other observations

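Mitochondrial ribosomal proteins, which build the ribosome that translates the 13 chain proteins of the mitochondrial genome, were read as a further set of 78 nuclear genes. Of these, 77 were tested and 37 had log2 fold changes above 0, with a median of -0.0084, and without control 2, 26 were above 0 with a median of -0.034. With limma, 0 passed the adjusted threshold, and at an unadjusted p under 0.05, 0 were above (background 1.17%) and 2 below (background 1.42%). Their summed level was 1610, 1483 and 1398 FPKM in STZ hearts, against 1626, 1508 and 1444 FPKM in control hearts. The sum of control 2 lay between those of the other 2 controls, while its summed level of the mitochondrial genome proteins was the lowest of 6. Gene by gene, control 2 was below both other controls at 40 of the 77 and above both at 22.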
